A study of Rattus norvegicus with 6 samples.

Results

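The genes described here are the neutrophil alarmins and the ligands of the chemokine receptor CXCR2, with the receptors that neutrophils use to follow them, in rat liver around the onset of autoimmune diabetes. The members were 8 genes given by name, Cxcl1, Cxcl2, S100a8, S100a9, Lcn2, Csf3r, Cxcr2 and Mpo, and a probe set belonged to a member when the array's probe annotation paired it with that single gene symbol. This rule found 7 probe sets for 7 of the 8 members, 1 each, among 31042 probe sets in all. Mpo, the peroxidase of neutrophil granules, had none under that single symbol and has no value here. The genes were chosen on their signals in earlier results of these same arrays, in all 3 groups, so their levels are given as a description, with differences and standard errors but without p-values. Where a member is said to be past limma's threshold, this describes the fit to the values that chose it and supports nothing.

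Liver RNA was measured on 6 Affymetrix rat genome arrays in 3 groups of 2 arrays. BBDR.lyp/lyp post-hyperglycemia rats were labelled 55 days old, BBDR.lyp/lyp pre-hyperglycemia rats 50 days old and BBDR.+/+ rats 55 days old, with a tolerance of 5 days in the design text. All rats shared the BBDR (BioBreeding diabetes resistant) background. Both copies of Gimap5 carry the lyp frameshift in BBDR.lyp/lyp rats, which therefore lack most T cells and without exception become diabetic, whereas untreated BBDR.+/+ rats stay normoglycemic. Thus genotype was confounded with age in pre-hyperglycemia against BBDR.+/+, hyperglycemia with age in post- against pre-hyperglycemia, and hyperglycemia with genotype in post-hyperglycemia against BBDR.+/+, and these cannot be told apart. The labels describe a fast before tissue collection, while the methods describe free access to food. No label ties an array to an individual rat or says that replicates came from separate rats, so the errors below measure only the spread between these arrays. The methods can be read as repeated liver sampling of the same rats, in which case pre- and post-hyperglycemia arrays could share animals, but no label pairs them. Every difference below takes its direction from the deposited group labels. The study's own list of fold changes gives Cd36, which is described further on, a like size with the opposite sign. The headings of that list do not settle which group stands on top. This question of direction is not particular to Cd36, and whether it bears on the other post-hyperglycemia differences below was not tested.

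CXCR2 is the main chemokine receptor of neutrophils. Its ligands, which include Cxcl1 and Cxcl2 and share an ELR amino acid motif, are released by resident tissue cells after inflammatory signals and draw neutrophils out of the blood. S100a8 and S100a9 form calprotectin, an abundant protein complex of the neutrophil cytosol that also acts as an alarmin, and Lcn2 is an iron-siderophore binding protein of neutrophil granules that hepatocytes make in the acute phase. In liver, Cxcl1 can be made by hepatocytes, sinusoidal endothelium and Kupffer cells, so its RNA is not specific to neutrophils.

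The regulatory sequence just before the genes is shown because Cxcl1 and Cxcl2 lie side by side on chromosome 14, and S100a8 and S100a9 on chromosome 2, and the genes of the first pair had unlike patterns over the groups while those of the second ran together. RefSeq promoters on the rat build GRCr8 were given for 7 of the 8 members, not for S100a8. In each line the 120 bases before the annotated start are written 5′ to 3′ on the gene's strand, and capitals mark matches to kappa B letters on either strand (GGG and TTTCC with 2 bases of any kind between them, which read as GGAAA and CCC on the reverse strand) and to the TATA-like letters ATAAA between 50 and 20 bases before the start. The letters and the window were chosen after the sequences had been seen. The windows lie at chr14:17479322-17479441 for Cxcl1, chr14:17467256-17467375 for Cxcl2, chr2:178490623-178490742 for S100a9 and chr14:17596418-17596537 for Cxcl6, an ELR-type chemokine gene near the same cluster, and all 4 are on the minus strand.
Cxcl1: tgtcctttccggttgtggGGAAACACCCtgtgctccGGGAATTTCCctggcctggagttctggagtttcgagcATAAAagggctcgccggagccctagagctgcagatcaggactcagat
Cxcl2: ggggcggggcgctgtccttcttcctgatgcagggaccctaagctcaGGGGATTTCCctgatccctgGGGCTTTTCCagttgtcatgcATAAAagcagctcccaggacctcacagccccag
S100a9: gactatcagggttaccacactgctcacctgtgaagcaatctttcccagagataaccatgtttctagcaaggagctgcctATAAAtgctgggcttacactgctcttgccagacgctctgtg
Cxcl6: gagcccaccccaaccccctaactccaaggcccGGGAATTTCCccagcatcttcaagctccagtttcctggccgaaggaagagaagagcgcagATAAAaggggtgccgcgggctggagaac

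Cxcl1 and Cxcl2 each held 2 kappa B matches in this window. In Cxcl1 they began 102 and 84 bases before the start and in Cxcl2 74 and 54, and Cxcl6 held 1, which began 88 bases before the start. Over the full 250 bases before the start, such a match was present in 1.3% of 33465 rat promoters. None was found for the members S100a9, Lcn2, Csf3r, Cxcr2 or Mpo, nor for the ligand gene Ppbp, the other gene searched outside the members. The ATAAA letters stood in the window for Cxcl1, Cxcl2, S100a9, Lcn2 and Cxcl6, against 4.52% of all promoters. The C/EBP letters TTGCNNAA (either strand, 9.22% of promoters) were present for Cxcl2, Lcn2 and Cxcl6. These matches describe the letters only.

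Cxcl1 was the member with the highest signal and the only one that was higher at each step, before hyperglycemia and again after it. Its probe set (1387316_at) read 9.11 and 9.52 on the log2 scale in BBDR.lyp/lyp post-hyperglycemia, 7.97 and 8.25 in pre-hyperglycemia and 6.61 and 6.68 in BBDR.+/+. The 3 groups did not overlap. The means were 9.32 ± 0.29, 8.11 ± 0.20 and 6.65 ± 0.05 in that order (SD, n = 2 each). The post-hyperglycemia level was 2.67 above BBDR.+/+ (SE 0.15, 6.35-fold) and 1.21 above pre-hyperglycemia (SE 0.15, 2.31-fold), and the pre-hyperglycemia level was 1.46 above BBDR.+/+ (SE 0.15, 2.75-fold). So 54.7% of the log2 difference between post-hyperglycemia and BBDR.+/+ was already there in the pre-hyperglycemia arrays.

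Cxcl2, the neighbour of Cxcl1 and a ligand of the same receptor, did not share this pattern. Its signal (1368760_at) was 4.24 and 4.17 post-hyperglycemia, 4.15 and 4.06 pre-hyperglycemia and 4.03 and 4.17 in BBDR.+/+. The lyp/lyp arrays and the BBDR.+/+ arrays overlapped, and all 6 lay within 0.21. The differences were 0.10 for post-hyperglycemia against BBDR.+/+, 0.00 for pre-hyperglycemia against BBDR.+/+ and 0.10 for post- against pre-hyperglycemia (SE 0.11 each). The probe set was outside the brightest 60% on the array, where a change in a low level of RNA may not be seen.

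S100a8 and S100a9 were higher in both lyp/lyp groups than in BBDR.+/+, and the 2 lyp/lyp groups lay close together. S100a8 (1368494_at) read 5.05 and 5.03 post-hyperglycemia, 5.18 and 4.74 pre-hyperglycemia and 3.73 and 3.77 in BBDR.+/+. The post-hyperglycemia values fell between the pre-hyperglycemia ones, and both groups were above BBDR.+/+. The S100a8 mean was 1.29 above BBDR.+/+ post-hyperglycemia (2.44-fold) and 1.21 above it pre-hyperglycemia (2.32-fold), with 0.08 between post- and pre-hyperglycemia (SE 0.14 each).

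S100a9 (1387125_at), the partner of S100a8, read 6.90 and 7.06 post-hyperglycemia, 7.42 and 6.97 pre-hyperglycemia and 5.58 and 5.47 in BBDR.+/+. Again the lyp/lyp groups overlapped and both stood above BBDR.+/+. The mean was 1.46 above BBDR.+/+ post-hyperglycemia (2.74-fold) and 1.66 above it pre-hyperglycemia (3.17-fold), and the post-hyperglycemia mean was 0.21 below the pre-hyperglycemia mean (SE 0.15 each). The replicate SD of the pre-hyperglycemia group was 0.32 for S100a9 and 0.31 for S100a8, larger than the difference between the lyp/lyp groups in either gene. Over the 6 arrays the 2 genes had a Pearson r of 0.981, which rests mainly on the gap between both lyp/lyp groups and BBDR.+/+ and on arrays the genes share. In whole liver, more cells of a type and more RNA per cell cannot be told apart.

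Lcn2, which both neutrophils and hepatocytes can make, was low in all groups. The signal (1387011_at) was 4.05 and 3.74 post-hyperglycemia, 3.59 and 3.84 pre-hyperglycemia and 3.81 and 3.76 in BBDR.+/+. The BBDR.+/+ arrays lay inside the range of the lyp/lyp arrays. Lcn2 differed by 0.11 between post-hyperglycemia and BBDR.+/+, by -0.07 between pre-hyperglycemia and BBDR.+/+ and by 0.18 between post- and pre-hyperglycemia (SE 0.13 each).

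The receptors were near the low end of the scale. Csf3r, the receptor for granulocyte colony-stimulating factor, had a signal (1386009_at) of 4.66 and 4.61 post-hyperglycemia, 4.60 and 4.44 pre-hyperglycemia and 4.33 and 4.47 in BBDR.+/+. Its post-hyperglycemia arrays did not overlap either other group, but the differences were 0.23 against BBDR.+/+ and 0.12 against pre-hyperglycemia, and pre-hyperglycemia was 0.12 above BBDR.+/+ (SE 0.11 each). Cxcr2 (1369697_at), the receptor of Cxcl1 and Cxcl2, read 3.97 and 3.97 post-hyperglycemia, 3.83 and 3.88 pre-hyperglycemia and 3.92 and 3.85 in BBDR.+/+. All 6 Cxcr2 values lay within 0.14, with differences of 0.08, -0.03 and 0.11 for post-hyperglycemia against BBDR.+/+, pre-hyperglycemia against BBDR.+/+ and post- against pre-hyperglycemia (SE 0.10 each).

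**Figure D1:**
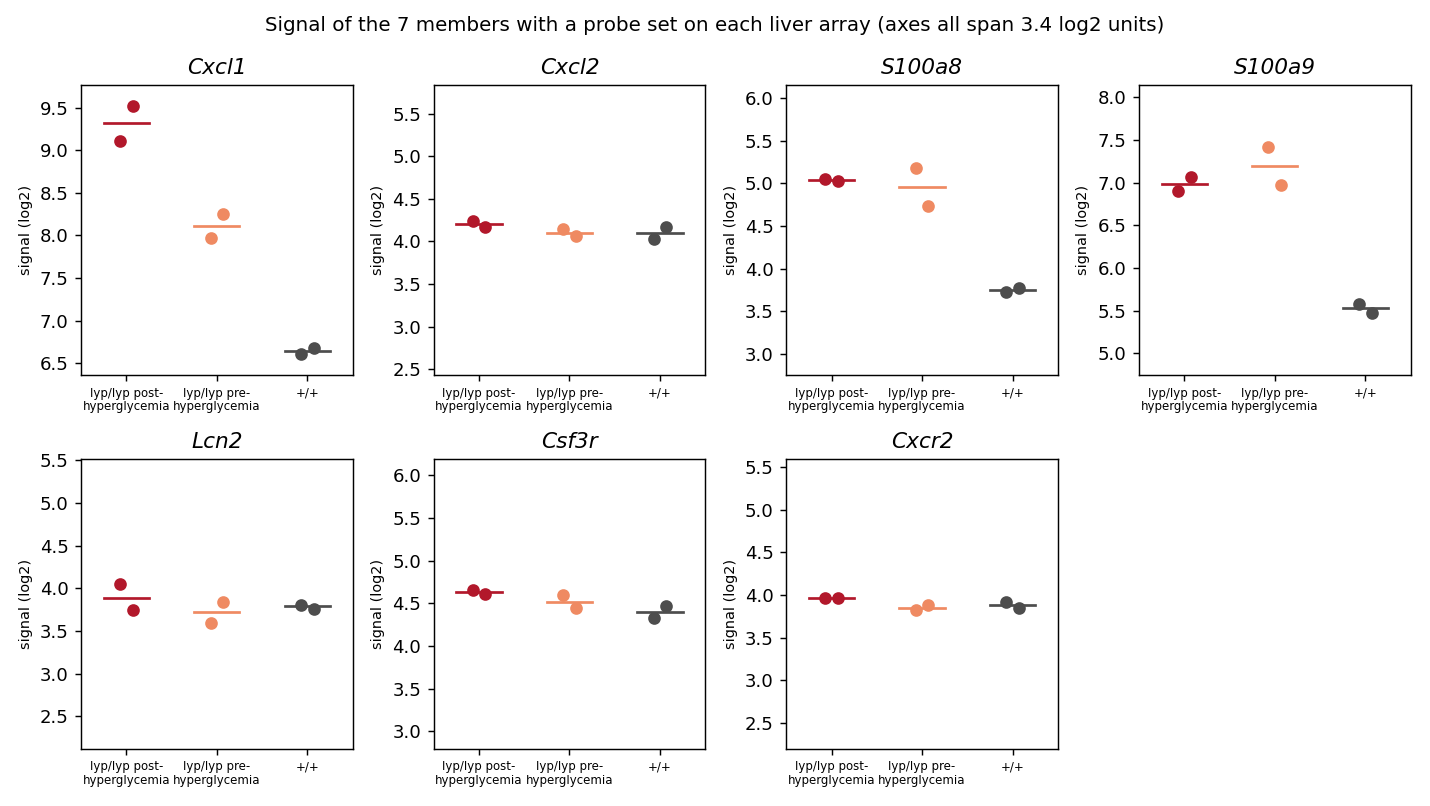
Signal of each member (log2, vertical axis) on each array, by group, with lines at the group means and each axis spanning the same range. Cxcl1 forms 3 separate levels, S100a8 and S100a9 are high in both lyp/lyp groups, and the other members stay within 0.46 over the 6 arrays.

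The members thus fell into 3 patterns of level. Cxcl1 was stepped, S100a8 and S100a9 were already at their post-hyperglycemia level before hyperglycemia (94.0% of the post-hyperglycemia difference for S100a8 and 114% for S100a9), and Cxcl2, Lcn2, Csf3r and Cxcr2 had no difference above 0.23 in any comparison. In a limma fit over all probe sets at a Benjamini-Hochberg adjusted p under 0.05, 3 of the 7 members were past the threshold as higher in post-hyperglycemia than in BBDR.+/+, where 1.89% of all probe sets were, 3 in pre-hyperglycemia than in BBDR.+/+ (0.464% of all) and 1, Cxcl1, in post- than in pre-hyperglycemia (0.718% of all). As these values chose the members, nothing is read from the counts. In the same fit 56 probe sets (0.18%) were higher in both lyp/lyp groups than in BBDR.+/+. Cxcl1 was the only 1 (0.00322%) that was higher in all 3 comparisons, which again describes the values that chose it and supports nothing. Its pre-hyperglycemia difference was 1.42 without BBDR.+/+ replicate 1 and 1.49 without replicate 2, and S100a8 had 1.19 and 1.23, and neither gene then passed. Arrays that did not overlap, with the first-named group above, were found for 5 members in post-hyperglycemia against BBDR.+/+ (26.7% of probe sets), 3 in pre-hyperglycemia against BBDR.+/+ (21.6%) and 4 in post- against pre-hyperglycemia (23.6%).

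**Figure D2:**
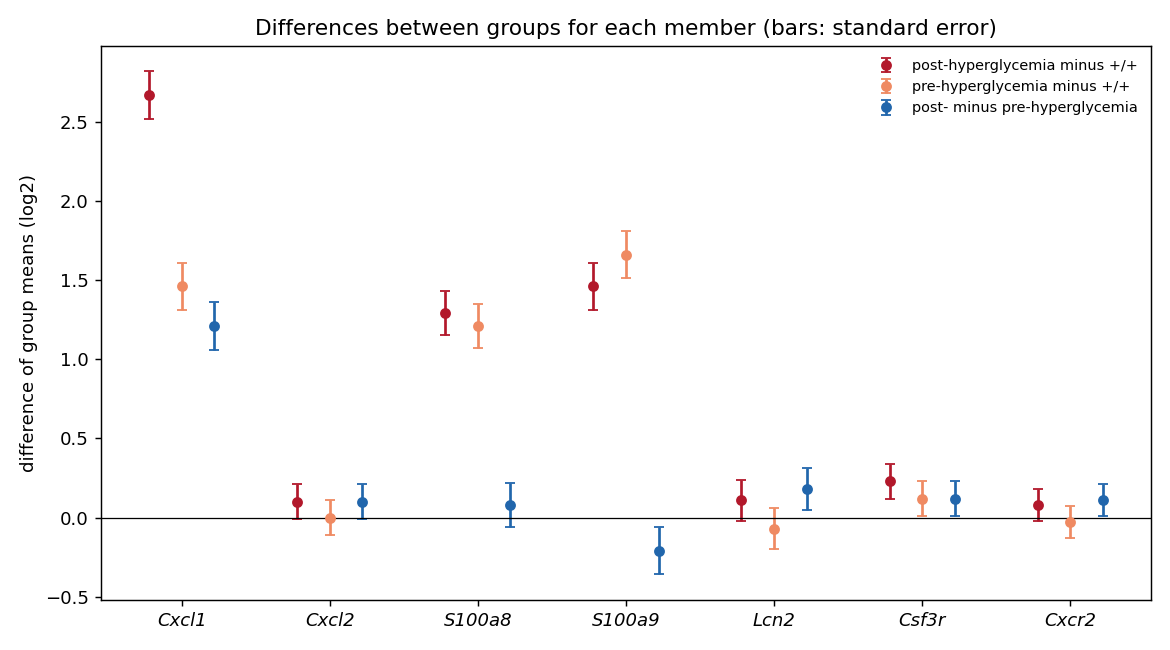
Differences between group means (log2, vertical axis) for each member with a probe set, with bars for the standard error of the fit over 6 arrays. For Cxcl1 all 3 differences are above 1.2, and for S100a8 and S100a9 the post- minus pre-hyperglycemia difference is 0.08 and -0.21.

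Signs of RNA quality moved with the post-hyperglycemia group. The 3′ control probe sets of beta-actin exceeded the 5′ ones by 2.11 and 2.04 on the log2 scale post-hyperglycemia, 1.51 and 1.32 pre-hyperglycemia and 1.36 and 1.12 in BBDR.+/+. For GAPDH the 3′ minus 5′ difference was 1.37 and 1.33 post-hyperglycemia, 0.67 and 0.55 pre-hyperglycemia and 0.72 and 0.44 in BBDR.+/+. With this difference as a covariate, which itself nearly separates the post-hyperglycemia arrays, the difference between post-hyperglycemia and BBDR.+/+ was 3.38 for Cxcl1, 0.80 for S100a8 and 0.70 for S100a9, and that between post- and pre-hyperglycemia was 1.83 for Cxcl1. None of these 4 differences was past limma's threshold. Between pre-hyperglycemia and BBDR.+/+ the covariate gave 1.55 for Cxcl1, 1.15 for S100a8 and 1.57 for S100a9. Between post- and pre-hyperglycemia it gave -0.35 for S100a8 and -0.87 for S100a9, so the closeness of the lyp/lyp groups in these genes and the shares of 94.0% and 114% belong to the fit without the covariate. The array medians were 5.90 to 5.94.

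The liver label was met by its markers, with a mean of 7 measured hepatocyte genes of 13.51 and 13.52 post-hyperglycemia, 13.53 and 13.51 pre-hyperglycemia and 13.46 and 13.46 in BBDR.+/+. Of 10 defining neutrophil genes outside the members, 4 had a probe set, Camp, Mmp8, Mmp9 and Itgam. Their mean signal was 4.72 and 4.80 post-hyperglycemia, 4.78 and 4.78 pre-hyperglycemia and 4.75 and 4.80 in BBDR.+/+, so the groups overlapped. None of the 4 passed limma's threshold in any comparison, none had an unadjusted p under 0.05, and the methods' t-test after Benjamini-Hochberg adjustment passed none. Only 1 of the 4 was among the brightest 60% of probe sets, and dim signals can understate a difference. Against BBDR.+/+, post-hyperglycemia Camp (an antimicrobial peptide of granules) differed by 0.04, Mmp8 (neutrophil collagenase) by 0.04, Mmp9 (gelatinase) by -0.00 and Itgam (CD11b) by -0.13.

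Kupffer cell markers read higher on the lyp/lyp arrays. All 6 measured were among the brightest 60% of probe sets, so they and the neutrophil markers were not equally able to show a change. The mean of the 6 of 9 measured was 9.81 and 9.72 post-hyperglycemia, 9.68 and 9.63 pre-hyperglycemia and 9.43 and 9.32 in BBDR.+/+, with no overlap of either lyp/lyp group with BBDR.+/+. In post-hyperglycemia against BBDR.+/+ 3 of the 6 rose, namely Cd163, the haemoglobin scavenger receptor, by 0.73 (adjusted p = 0.00598), Cd5l by 0.43 (0.0392) and Clec4f by 0.42 (0.0453). In pre-hyperglycemia 0 of 6 passed, with 4 higher at an unadjusted p under 0.05, where 1205 of all 14217 genes were, and the methods' t-test passed none. Without BBDR.+/+ replicate 2 the Cd163 difference was 0.61 and did not pass, and Cd5l (0.37 to 0.50) and Clec4f (0.34 to 0.49) did not pass without any 1 of the 6 arrays. With the 3′ minus 5′ covariate Cd163 was at 0.15, Cd5l at 0.37 and Clec4f at 0.41, and none passed. With the 4 compared arrays alone, Cd5l and Clec4f did not pass. The second probe set of Cd5l was at 0.07. Monocyte markers (7 of 7 measured) averaged 6.76 and 6.80 post-hyperglycemia, 6.95 and 6.98 pre-hyperglycemia and 6.78 and 6.78 in BBDR.+/+. Whether these cells contributed to the levels of Cxcl1, S100a8 and S100a9 was not tested.

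A list of other CXCR2 ligands and related chemokine system genes was then examined, each gene by its brightest probe set, with adjusted p-values over all probe sets. Of 7 genes 6 had a probe set (Cxcl5 had none). None passed in any of the 3 comparisons, none had an unadjusted p under 0.05, and the methods' t-test passed none. Cxcl3, a further CXCR2 ligand, read 6.92 and 6.71 post-hyperglycemia, 6.78 and 6.78 pre-hyperglycemia and 6.93 and 7.06 in BBDR.+/+, a difference of -0.18 between post-hyperglycemia and BBDR.+/+, and its 5 probe sets ranged between -0.18 and 0.12. Cxcl6, whose promoter holds the same 10 letters as 1 of the kappa B matches of Cxcl1, differed by -0.01, the second interleukin-8 type receptor Cxcr1 by -0.01, the platelet chemokine Ppbp by -0.09, Pf4, a platelet chemokine without the ELR motif that is not a CXCR2 ligand, by 0.13, and the decoy receptor Ackr1 by 0.05. The median of the 6 genes was -0.01, against 0.04 for all 14217 genes. Only 2 of the 6 were among the brightest 60% of probe sets, and dim signals can understate a difference.

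Granule and alarmin genes outside the members had a probe set for 11 of 18 genes. In limma 0 of 11 passed in each comparison, with 2 higher at an unadjusted p under 0.05 in either lyp/lyp group against BBDR.+/+, and the methods' t-test passed 0. At that level 1910 of all 14217 genes were higher post-hyperglycemia and 1205 pre-hyperglycemia against BBDR.+/+, and 1069 post- against pre-hyperglycemia. The median difference of the 11 genes was 0.04 post-hyperglycemia and 0.05 pre-hyperglycemia against BBDR.+/+, and 5 of the 11 were among the brightest 60% of probe sets. Lyz2, lysozyme of neutrophils and macrophages, had 10.27 and 10.08 post-hyperglycemia, 10.20 and 10.26 pre-hyperglycemia and 9.95 and 9.82 in BBDR.+/+, a difference of 0.29 post-hyperglycemia that did not pass (adjusted p = 0.172). The other S100 genes behaved likewise. Of 12 measured, 0 passed in each comparison, with 2 higher at an unadjusted p under 0.05 post-hyperglycemia and 1 pre-hyperglycemia against BBDR.+/+, 0 in post- against pre-hyperglycemia, and 0 by the methods' t-test. S100a6 differed by 0.35 (adjusted p = 0.276) and S100a13 by 0.33 (adjusted p = 0.148) between post-hyperglycemia and BBDR.+/+.

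Over all pathway lists, each gene once, 103 of 123 genes were measured. In post-hyperglycemia against BBDR.+/+ 7 rose and 4 fell, where 2.29% of all genes rose and 1.24% fell. In pre-hyperglycemia against BBDR.+/+ 3 rose and 0 fell, where 0.584% of all genes rose and 0.218% fell. In post- against pre-hyperglycemia 0 rose and 5 fell, where 0.703% of all genes rose and 0.668% fell. The median differences of the 103 genes in these comparisons were 0.06, 0.06 and 0.00, beside 0.04, 0.02 and 0.01 for all genes. Without BBDR.+/+ replicate 2, Lbp alone of the 11 genes still passed post-hyperglycemia against BBDR.+/+, and without post-hyperglycemia replicate 2 it was 5 of 11. None of the 3 pre-hyperglycemia calls held without pre-hyperglycemia replicate 2 or without either BBDR.+/+ array, and none of the 5 calls of post- against pre-hyperglycemia held without post-hyperglycemia replicate 1, nor without pre-hyperglycemia replicate 2. With the 3′ minus 5′ covariate, 0 genes passed in either comparison of the post-hyperglycemia arrays and 2 in pre-hyperglycemia against BBDR.+/+, and the methods' t-test passed 0 in all 3. The balance of rises and falls depended on the choice of the brightest probe set. With each gene's probe sets averaged instead, 4 genes rose and 7 fell in post-hyperglycemia against BBDR.+/+. Averaging gave 2 rises and 1 fall in pre-hyperglycemia against BBDR.+/+, and 1 rise and 4 falls in post- against pre-hyperglycemia.

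The cytokine and NF-kB feedback list held 18 measured genes, of which 2 rose post-hyperglycemia and 1 pre-hyperglycemia against BBDR.+/+. Nfkbiz, an atypical IkB protein that promotes a subset of NF-kB targets, read 7.68 and 7.96 post-hyperglycemia, 7.68 and 7.81 pre-hyperglycemia and 7.06 and 7.09 in BBDR.+/+. Like S100a8 and S100a9 it was high in both lyp/lyp groups, by 0.75 (adjusted p = 0.0056) and 0.67 (adjusted p = 0.0356). Bcl3, another IkB family member, was 0.59 above BBDR.+/+ post-hyperglycemia (adjusted p = 0.00822) and 0.42 above it pre-hyperglycemia without passing. Tnfaip3 (A20), a brake on NF-kB, was 0.42 and 0.55 above BBDR.+/+ post- and pre-hyperglycemia without passing. By their brightest probe sets the upstream cytokines did not pass against BBDR.+/+ either. The differences post-hyperglycemia were 0.16 for Il1b, 0.22 for Il6, -0.19 for Il1a, -0.21 for Tnf and -0.22 for Csf3, the ligand of Csf3r. The second, dimmer probe set of Il1a did pass, at -1.02 post-hyperglycemia against BBDR.+/+ (adjusted p = 0.000931). Without BBDR.+/+ replicate 2, Nfkbiz (0.77) and Bcl3 (0.54) no longer passed post-hyperglycemia, and Nfkbiz lost its pre-hyperglycemia call without any 1 of the 4 arrays compared (0.60 to 0.74). The dimmer probe sets of both genes did not follow, at -0.06 for Nfkbiz and -0.03 and 0.14 for Bcl3. With the 3′ minus 5′ covariate the post-hyperglycemia differences were 1.13 for Nfkbiz and 0.33 for Bcl3, and the pre-hyperglycemia difference of Nfkbiz was 0.72, and none passed.

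The list of 17 measured hepatocyte acute phase genes also held a receptor, Il1r1, and a signalling gene, Stat3. Of the 17, 3 rose, these included, and 1 fell post-hyperglycemia against BBDR.+/+. Lbp, which presents endotoxin to CD14, read 11.03 and 11.15 post-hyperglycemia, 11.17 and 11.34 pre-hyperglycemia and 10.31 and 10.43 in BBDR.+/+, and was 0.72 (adjusted p = 0.00483) and 0.88 (adjusted p = 0.0058) above BBDR.+/+ in the 2 lyp/lyp groups. Il1r1, the interleukin-1 receptor, rose by 0.62 (adjusted p = 0.00942) and Stat3, which transmits the interleukin-6 signal, by 0.60 (adjusted p = 0.0206), while Crp fell by 0.57 (adjusted p = 0.0426). Pre-hyperglycemia against BBDR.+/+, Il1r1 was at 0.40, Stat3 at 0.19 and Crp at -0.32, and none passed. A2m, an acute phase protease inhibitor of the rat, was highest on the pre-hyperglycemia arrays, with 7.42 and 7.43 post-hyperglycemia, 7.94 and 8.09 pre-hyperglycemia and 7.31 and 7.16 in BBDR.+/+. It was 0.78 higher pre-hyperglycemia than in BBDR.+/+ (adjusted p = 0.00966) and fell by 0.59 post- against pre-hyperglycemia (adjusted p = 0.021).

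The acute phase calls did not all hold when an array was dropped, except for Lbp post-hyperglycemia, which held without any 1 array. Lbp pre-hyperglycemia failed to pass when pre-hyperglycemia replicate 2 (0.80) was dropped, or either BBDR.+/+ array (0.82 without replicate 1 and 0.94 without replicate 2), nor did A2m (0.71, 0.85 and 0.71). Post- against pre-hyperglycemia, A2m was lost without pre-hyperglycemia replicate 2 (-0.52) or either post-hyperglycemia array (-0.58 and -0.59). Il1r1 and Stat3 were lost without BBDR.+/+ replicate 1 (0.64 and 0.59), BBDR.+/+ replicate 2 (0.60 and 0.62) or post-hyperglycemia replicate 2 (0.53 and 0.44). Crp was lost without BBDR.+/+ replicate 2 (-0.39) or either post-hyperglycemia array (-0.49 and -0.64), and with the 3′ minus 5′ covariate it was at 0.59. The same covariate gave 1.26 for Lbp, 1.01 for Stat3 and 0.48 for Il1r1 post-hyperglycemia against BBDR.+/+ and -0.69 for A2m post- against pre-hyperglycemia, and none passed. The dimmer probe sets of Il1r1 (-0.05 and -0.10) and Stat3 (-0.31) did not follow.

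Of 9 measured receptors of alarmins and lipocalin, 1 fell post-hyperglycemia against BBDR.+/+ and 2 against pre-hyperglycemia, and 0 rose. Cd14, the co-receptor of TLR4, which S100a8 and S100a9 also engage, read 8.25 and 8.48 post-hyperglycemia, 9.20 and 9.50 pre-hyperglycemia and 8.77 and 9.02 in BBDR.+/+. Post-hyperglycemia it fell by 0.99 against pre-hyperglycemia (adjusted p = 0.00679), while it was 0.53 below BBDR.+/+ without passing (adjusted p = 0.053). Cd36, a fatty acid transporter that also binds calprotectin, fell by 0.93 against BBDR.+/+ (adjusted p = 0.00661) and by 0.78 against pre-hyperglycemia (adjusted p = 0.0285). Tlr4 itself differed by 0.22 and Ager, the receptor RAGE, by -0.17 post-hyperglycemia against BBDR.+/+. The Cd14 call was lost on dropping pre-hyperglycemia replicate 2 (-0.84), and likewise post-hyperglycemia replicate 1 (-0.88). Cd36 did not pass against BBDR.+/+ without BBDR.+/+ replicate 2 (-0.82), nor did it against pre-hyperglycemia when either BBDR.+/+ array (-0.78), post-hyperglycemia replicate 1 (-0.58) or pre-hyperglycemia replicate 2 (-0.64) was dropped. With the 3′ minus 5′ covariate the post-hyperglycemia falls were gone. Cd14 was then at -0.08 against pre-hyperglycemia and 0.50 against BBDR.+/+, and Cd36 at 0.13 against pre-hyperglycemia and 0.12 against BBDR.+/+, and none passed.

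Of 16 measured surface, signalling and oxidase genes of neutrophils, 1 rose and 1 fell post-hyperglycemia. Cybb, the catalytic subunit of the phagocyte oxidase, was 0.62 above BBDR.+/+ post-hyperglycemia (adjusted p = 0.0163) and 0.39 above it pre-hyperglycemia without passing. Lyn, a Src family kinase of myeloid and B cells, read 5.87 and 6.46 post-hyperglycemia, 6.99 and 7.10 pre-hyperglycemia and 7.05 and 7.32 in BBDR.+/+, and fell by 1.02 against BBDR.+/+ (adjusted p = 0.00741) and by 0.88 against pre-hyperglycemia (adjusted p = 0.0285). Among 7 endothelial adhesion genes Pecam1 was 0.49 above BBDR.+/+ post-hyperglycemia (adjusted p = 0.034) and 0.41 above it pre-hyperglycemia without passing. Icam1, the ligand of neutrophil integrins, differed by 0.32 post-hyperglycemia without passing (adjusted p = 0.13). Of 7 CXC chemokines for other receptors, Cxcl9, an interferon-induced ligand of CXCR3, was 0.44 lower post-hyperglycemia than in BBDR.+/+ (adjusted p = 0.0303). It was as low before hyperglycemia, at -0.45 against BBDR.+/+ without passing, and its second probe set passed there at -0.59 (adjusted p = 0.0439). Il1a, of the cytokine list, fell by 0.51 post- against pre-hyperglycemia (adjusted p = 0.0396).

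Dropping 1 array ended most of these calls as well. Cybb (0.49) and Lyn (-0.89) did not pass against BBDR.+/+ without BBDR.+/+ replicate 2, nor Cybb without post-hyperglycemia replicate 2 (0.54), and Lyn passed against pre-hyperglycemia only when no array or post-hyperglycemia replicate 2 was dropped (-0.94 to -0.59 otherwise). Pecam1 (0.47 to 0.51) and Cxcl9 were lost without any 1 of the 4 arrays compared, and Il1a without any 1 of the 6 (-0.60 to -0.43). With the 3′ minus 5′ covariate Lyn was at -0.02 against BBDR.+/+ and -0.01 against pre-hyperglycemia, Cybb was at -0.04 and Pecam1 at 0.12 against BBDR.+/+, while Cxcl9 was at -0.42 against BBDR.+/+ and Il1a at -0.51 against pre-hyperglycemia, and none passed. The second probe set of Cybb (-0.22) and of Lyn (0.12) did not follow, whereas those of Cxcl9 (-1.01 against BBDR.+/+, adjusted p = 0.000952) and Il1a (-1.21 against pre-hyperglycemia, adjusted p = 0.00127) fell further.

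**Figure D3:**
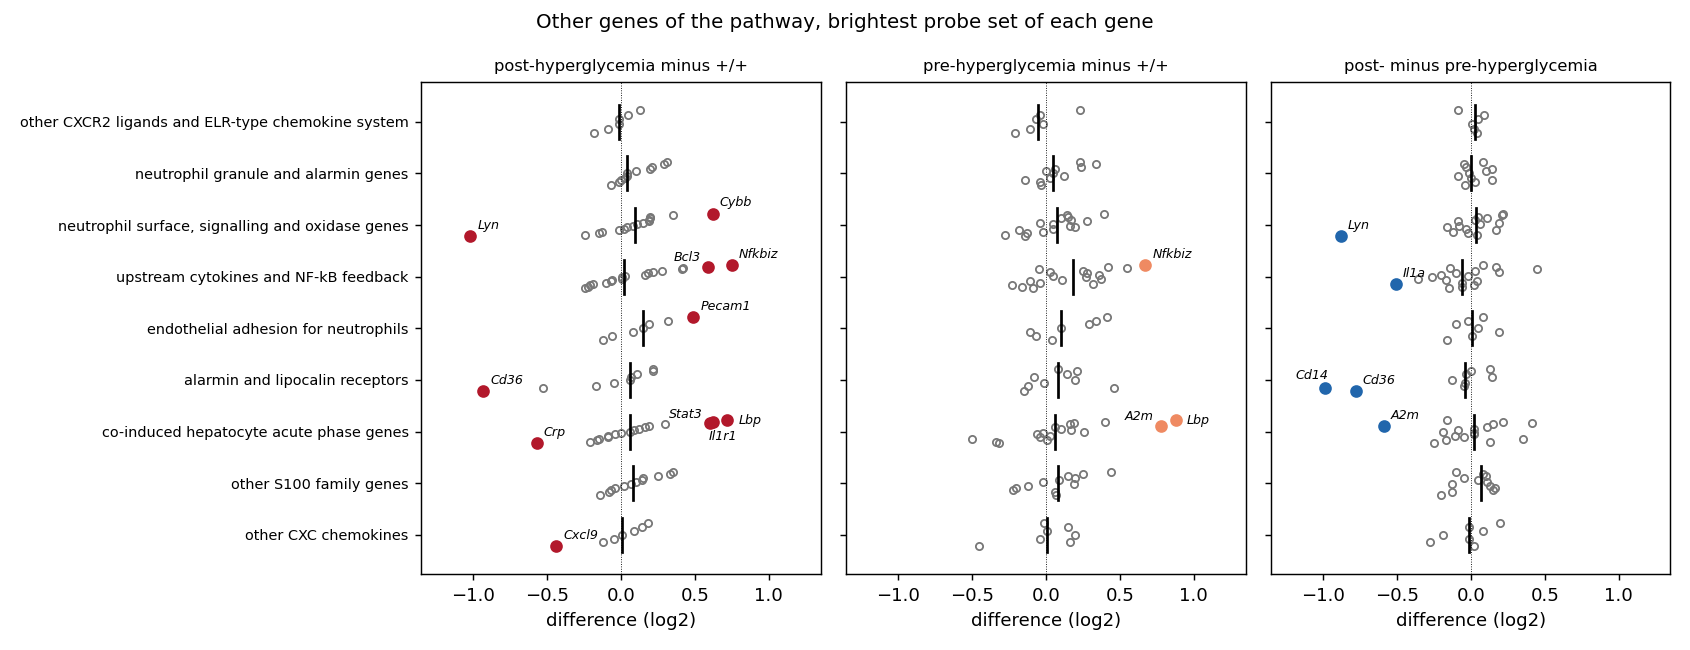
Differences between groups (log2, horizontal axis) for the 103 measured pathway genes outside the members, by list, in the 3 comparisons. Filled and named points passed limma's threshold, open points did not, and vertical bars are list medians, so that the CXCR2 ligand, granule and S100 lists hold no filled point.

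The genes whose levels ran most nearly alongside Cxcl1 and S100a9 were sought among 521 probe sets with a range of at least 1 over the 6 arrays. For Cxcl1 the nearest were Abcd3, a peroxisomal fatty acid transporter (Pearson r of 0.994 over 6 arrays), Kng2l1, a kininogen (0.982), Wfdc21 (0.948), Ddx60, an interferon-induced helicase (0.934), and Rnpc3, a minor spliceosome protein (0.925). Their steps were smaller than those of Cxcl1. Abcd3 was 0.95 above BBDR.+/+ post-hyperglycemia and 0.50 pre-hyperglycemia, and Ddx60 1.48 and 0.64. Kng2l1 had brighter probe sets that did not follow, at -0.05 and -0.24 post-hyperglycemia.

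For S100a9 the nearest genes were Ect2, which drives cytokinesis (r of 0.971), the proliferation marker Mki67 (0.966), the transcription factor Klf2 (0.963), the RNA-binding protein gene Igf2bp3 (0.962) and the thyroxine-binding globulin gene Serpina7 (0.96). Ect2 was 0.90 above BBDR.+/+ post-hyperglycemia and 1.25 pre-hyperglycemia, and Serpina7 0.99 and 1.45. Mki67 had 1.15 and 0.99, so that it too was already high before hyperglycemia. The other 4 probe sets of Klf2 ranged between -0.21 and 0.27 post-hyperglycemia against BBDR.+/+. Pre-hyperglycemia they were at 0.06, -0.16, 0.96 and -0.07, and none passed. The probe set at 0.96 read 4.78 and 6.15 on the post-hyperglycemia arrays. Both other probe sets of Igf2bp3 were near BBDR.+/+ post-hyperglycemia (-0.15 and -0.11) and above it pre-hyperglycemia (0.70 and 0.71), so they were not high in both lyp/lyp groups. Candidates with an r of at least 0.95 numbered 2 for Cxcl1, 6 for S100a9 and 0 for Lcn2, for which the highest r was 0.634. Such correlations rest on 3 group levels and on arrays that the genes share, and they describe likeness of pattern only.

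**Figure D4:**
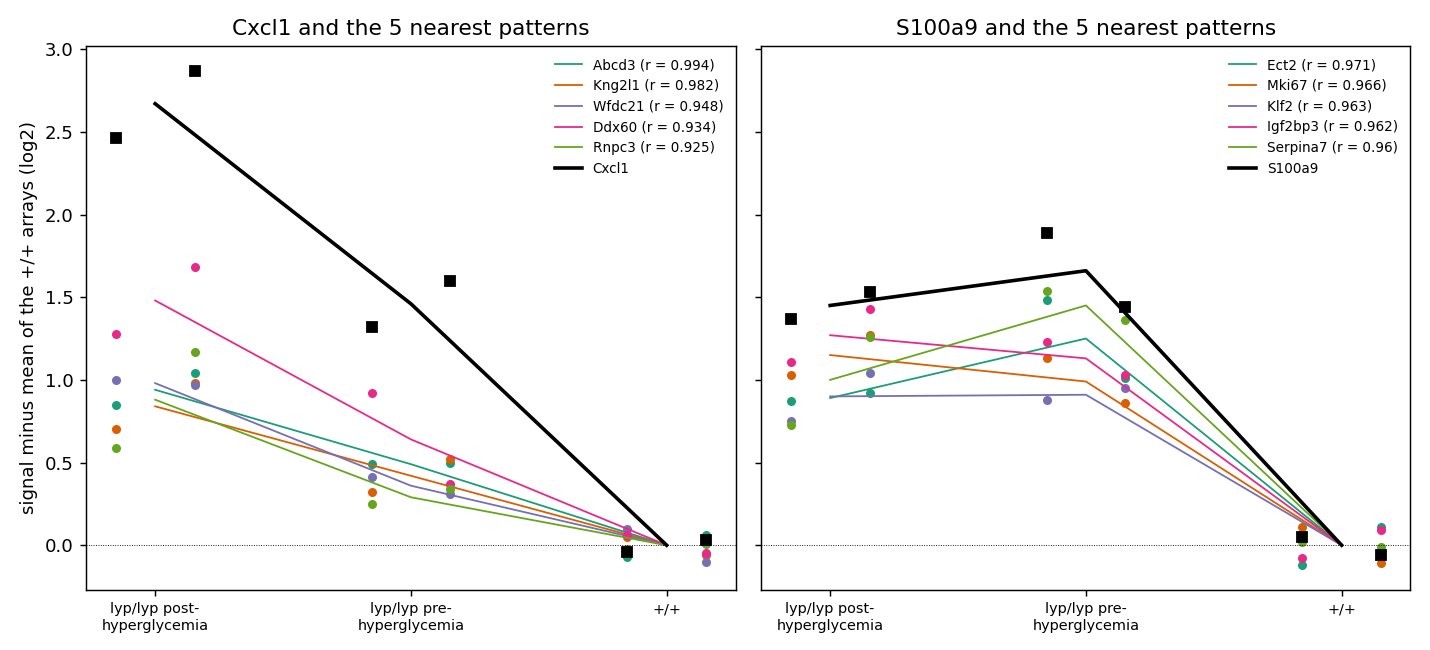
Signal minus the BBDR.+/+ mean (log2, vertical axis) on each array (points) and as group means (lines), for Cxcl1 and for S100a9 in black and their 5 nearest genes in colour. Cxcl1 has the steepest steps of its panel, and the probe sets plotted with S100a9 are high in both lyp/lyp groups.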

How the data were processed

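Array images were read by the authors in Affymetrix Expression Console, and the signals were then normalized in Partek Genomic Suite. The algorithm of this normalization and both versions were not given in the sources used here, and the labels and the methods name different labelling kits. The deposited values were log2 signals, 1 per probe set and array, without detection calls. Of 31099 probe sets 57 controls were set aside. The probe annotation gave 1 symbol to 20826 probe sets, several to 436 and none to 9780.

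Group means were fitted over all 6 arrays with limma (version 3.58.1, R 4.3.3; 3 residual and 7.7 prior degrees of freedom), without a filter on signal, and p-values were adjusted over all probe sets by the Benjamini-Hochberg method with a threshold of 0.05. A simulated table with known changes was used to test the code. The gene's probe set with the highest mean stood for it. For the pathway genes, averaging each gene's probe sets was tried as well. Members and lists were chosen with earlier results of these data known. Named genes were all members, up to 4 genes of each list with the smallest p in post-hyperglycemia against BBDR.+/+, up to 2 in each other comparison, and the 5 nearest patterns. Upstream cytokines, Tlr4, Ager, Cxcl6, Cxcr1, Ppbp, Ackr1 and the markers were named beside them for their roles, after their values were seen. Other normalizations, filters, variance models, the methods' t-test, a replicate block and leaving out each array were tried, for genes other than the members after the data had been seen. The study's methods also name rank product tests, with a looser false discovery rate, which were not run here.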

Additional observations from a re-analysis of the deposited data

How the results depend on the processing

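The members' calls, and the signs of those called, did not change with quantile normalization, median centring, an intensity trend in the prior variance or the 4 compared arrays alone, which is no independent support, since these values chose the members. Among the brightest 60% of probe sets, where S100a8 was not tested, 2, 2 and 1 members passed in post-hyperglycemia against BBDR.+/+, pre-hyperglycemia against BBDR.+/+ and post- against pre-hyperglycemia, beside 3, 3 and 1. In that order of comparisons, the methods' t-test passed 0, 0 and 0 members, 0, 0 and 0 pathway genes (beside 11, 3 and 5) and 0, 1 and 0 of all probe sets (beside 1599, 223 and 677). The 3′ minus 5′ covariate left 0, 3 and 0 members, 0, 2 and 0 pathway genes and 0, 115 and 0 probe sets, and turned Cd36 (0.12 against BBDR.+/+ and 0.13 against pre-hyperglycemia), Crp (0.59) and Cybb (-0.04) to the other sign. The cause was not tested. An intensity trend gave 6 and 8 pathway genes in the second and the third comparison, and 2371, 496 and 1225 probe sets. An adjusted p under 0.10 gave 5 pathway genes in the second, and 2710, 426 and 1289 probe sets. The 4 compared arrays alone gave 2 pathway genes and 413 probe sets in the third. Leaving out 1 array gave 3 to 3, 1 to 3 and 1 to 1 members, 1 to 12, 0 to 3 and 0 to 3 pathway genes, and 291 to 1567, 12 to 212 and 112 to 537 probe sets.

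The groups share replicate numbers 1 and 2, but nothing says that a number marks a common litter or day. The replicate 1 minus replicate 2 differences correlated at 0.142 between post-hyperglycemia and BBDR.+/+, 0.261 between pre-hyperglycemia and BBDR.+/+ and 0.11 between post- and pre-hyperglycemia. With the replicate number as a block, 3, 3 and 1 members, 14, 4 and 6 pathway genes and 2273, 408 and 1191 probe sets passed.

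With 2 arrays a group, absence of a call for Cxcl2, Lcn2, Csf3r and Cxcr2 does not show that their levels were equal. Their probe sets and that of S100a8 were outside the brightest 60%, and dim signals can understate a difference.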

Other observations

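Other cell type markers were read for the same arrays with limma, with adjusted p-values over all probe sets. Of 4 measured mast cell genes 2 were higher post-hyperglycemia than in BBDR.+/+, the mast cell protease gene Mcpt1 by 1.13 and the carboxypeptidase gene Cpa3 by 0.47. Post- against pre-hyperglycemia 1 of the 4 was higher. The list mean was 5.53 and 5.42 post-hyperglycemia, 5.20 and 5.30 pre-hyperglycemia and 5.16 and 5.22 in BBDR.+/+. In the monocyte list, 1 of 7 rose post-hyperglycemia against BBDR.+/+ (Ly86, a partner of an endotoxin receptor homologue, by 0.43, adjusted p = 0.0347). In the same list 1 of 7, Cd14, fell post- against pre-hyperglycemia by 0.99 (adjusted p = 0.00679). At an unadjusted p under 0.05, 2 monocyte genes were higher and 2 lower post-hyperglycemia against BBDR.+/+, 4 were higher pre-hyperglycemia against BBDR.+/+, and 2 were lower post- against pre-hyperglycemia. Of all 14217 genes, 1910 were higher and 778 lower at that level post-hyperglycemia against BBDR.+/+. Pre-hyperglycemia against BBDR.+/+ 1205 of all genes were higher and 529 lower, and post- against pre-hyperglycemia 1069 were higher and 838 lower. Of 4 measured erythroid genes 1, the haem synthesis gene Alas2, rose by 0.56 pre-hyperglycemia against BBDR.+/+. Mcpt1 also rose by 0.81 post- against pre-hyperglycemia. With the 3′ minus 5′ covariate Mcpt1 was at 0.79 against BBDR.+/+ and 0.51 against pre-hyperglycemia. Against BBDR.+/+ it gave 0.80 for Cpa3 and 0.26 for Ly86 post-hyperglycemia and 0.56 for Alas2 pre-hyperglycemia, and none of these passed. After quantile normalization Ly86 was at 0.40 post-hyperglycemia and Alas2 at 0.51 pre-hyperglycemia against BBDR.+/+, and neither passed. Against BBDR.+/+ Mcpt1 passed with any 1 array left out (0.93 to 1.33), whereas Cpa3 (0.41 to 0.53) and Ly86 (0.39 to 0.48) were lost without any 1 of the post-hyperglycemia or BBDR.+/+ arrays, and Alas2 (0.54 to 0.58) without any 1 of the pre-hyperglycemia or BBDR.+/+ arrays. Post- against pre-hyperglycemia Mcpt1 was lost without post-hyperglycemia replicate 1 (0.60), pre-hyperglycemia replicate 1 (0.76) or replicate 2 (0.85). No gene passed among 7 of T cells, 2 of B cells, 4 of NK cells, 4 of endothelium and 7 of hepatocytes in any of the 3 comparisons, nor by the methods' t-test. At an unadjusted p under 0.05 post-hyperglycemia against BBDR.+/+, 2 T cell genes were lower, 2 NK cell genes and 1 endothelial gene were higher, and no B cell or hepatocyte gene was past that level. Pre-hyperglycemia against BBDR.+/+, 2 T cell genes were lower and 2 hepatocyte and 2 endothelial genes higher at that level, and post- against pre-hyperglycemia 1 T cell gene was lower and 1 NK cell gene higher.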
